A study of Oncorhynchus mykiss with 18 samples.

Results

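The 27 transcripts described here were at or near 0 in rainbow trout alevins kept in solvent and were present in every library of the fish kept at the highest analysed concentrations of 17α-ethinylestradiol (EE2), an estrogen made for oral contraception. They were chosen by their measured levels among 79244 RefSeq transcripts. Levels are in CPM, the estimated count of a transcript scaled to a common library total. A member had a mean under 0.2 CPM over the 3 solvent libraries and 1 CPM or more in each of the 6 libraries at 16.3 and 55.1 ng/L. The egg envelope transcript zp2.3 (NM_001124600.1) and the yolk protein transcript vtg3 (XM_021599921.1) also met both limits and were left out by name, and so would have been any transcript of the estrogen receptor gene esr1, of which 0 met them. In all, 19169 transcripts had a solvent mean under the limit. Because the levels in solvent and at 16.3 and 55.1 ng/L made the choice, the differences between these groups are descriptions without a test. The libraries at 1.13, 1.57 and 6.22 ng/L took no part in the choice, and comparisons among these 3 groups were tested.

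Alevins are hatched fish that still feed on their yolk sac. Whole alevins (Oncorhynchus mykiss) were sampled 4 days after hatching, after 96 hours in flowing water at 14 °C. The solvent group was kept with 0.01% DMSO and the other 5 groups with EE2 at measured concentrations, 1.13 and 1.57 ng/L, then 6.22 ng/L, then 16.3 and lastly 55.1 ng/L; the labels do not say whether the EE2 groups carried DMSO as well. A group at 169 ng/L named in the study's design was not analysed here. Each library was made from poly(A) RNA of a pool of 3 alevins, with 3 libraries (A, B and C) a group and 18 in all. Separate tanks for the pools of a group are not stated in the labels; p-values rest on the differences between pools alone, and those may be technical.

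Estrogens act on egg-laying vertebrates chiefly through nuclear estrogen receptors, which bind DNA and switch on target genes in the liver. In mature female fish the liver then makes vitellogenins, the precursors of yolk protein, and in many species also proteins of the egg envelope, and sends both through the blood to the ovary. Males and young fish make almost none of these proteins unless they are exposed to an estrogen, which is why such genes serve as markers of estrogens in water.

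Library totals lay between 12658946 and 32851570 estimated counts, so that 1 CPM stood for 12.7 to 32.9 reads, and 3 reads over the whole solvent group for 0.0701 CPM. Totals were 26160497 to 28166132 at 1.13 ng/L, 23837786 to 32851570 at 1.57 ng/L and 15365201 to 16164585 at 6.22 ng/L. The effective lengths in the deposited tables differed from the transcript lengths by a constant in the 6 libraries of solvent and 55.1 ng/L and by a value that varied between transcripts in the other 12. Comparisons among 1.13, 1.57 and 6.22 ng/L therefore lay within 1 kind of quantification, while those of 16.3 with 55.1 ng/L, and of 1.13 to 16.3 ng/L with solvent, crossed kinds. The groups at 1.13, 1.57 and 6.22 ng/L were still not matched in depth, with lower totals at 6.22 ng/L. Totals were 12658946 to 17076432 in solvent, 19679734 to 29635724 at 16.3 ng/L and 13013502 to 16122131 at 55.1 ng/L. Every library of solvent, 6.22 and 55.1 ng/L thus had a lower total than any at 1.13, 1.57 or 16.3 ng/L. The tested steps to 6.22 ng/L cross this split, which cannot be told apart from concentration there. In the tests described below (edgeR), 29 of all transcripts were higher and 11 lower at 6.22 ng/L than in solvent. Against 1.13 ng/L, 2413 were higher and 2824 lower at 6.22 ng/L. Fixed markers of the whole body were present: the summed level of the 8 hepatocyte genes found of 19 listed ran from 718 to 931 CPM in solvent, 1035 to 1435 CPM at 1.13 ng/L, 883 to 1064 CPM at 1.57 ng/L, 546 to 702 CPM at 6.22 ng/L and 549 to 692 CPM at 55.1 ng/L. Most of it was tfa (transferrin), with means of 497 CPM in solvent, 938 CPM at 1.13 ng/L and 364 CPM at 55.1 ng/L. From solvent to 55.1 ng/L the mean of ahsg2 went from 64.0 to 18.9 CPM. Means of apoba, f2 and serpinc1 were also lower at 55.1 ng/L, and those of plg were 52.0 and 51.9 CPM. By contrast, rbp4 had 34.0 CPM in solvent and 61.4 CPM at 55.1 ng/L, and ambp 14.1 and 20.4 CPM. The 4 muscle genes found of 10 summed to 4606 to 5183 CPM in solvent and 6266 to 6447 CPM at 55.1 ng/L. The 1 erythrocyte gene found of 7, alas2, had 42.5 to 48.5 and 20.5 to 32.2 CPM. At 1.13, 1.57 and 6.22 ng/L the muscle sums were 4214 to 4988, 4617 to 5509 and 5024 to 6408 CPM. There alas2 had 41.9 to 44.4, 32.7 to 63.4 and 24.6 to 38.1 CPM. The 1 lens gene found of 4, crygmxl2, had 16.1 to 27.5, 4.78 to 9.77 and 34.2 to 39.4 CPM at these 3 concentrations. It had 12.2 to 30.4 CPM in solvent and 29.9 to 40.4 CPM at 55.1 ng/L. Means of the muscle gene pvalb1 were 47.6 CPM in solvent and 4.63, 1.26, 88.8, 9.35 and 140 CPM from 1.13 to 55.1 ng/L. The part of these shifts in the members' differences was not tested. The summed level of the 6 egg and ovary genes found of 8 was 1.71 to 3.22 CPM in solvent and 1.62 to 3.04 CPM at 55.1 ng/L, ranges that overlap. In libraries of whole fish, fewer cells of a type and less RNA per cell cannot be told apart.

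Of the 27 transcripts, 11 were matched by accession to a gene of the RefSeq table (assembly USDA_OmykA_1.1), compared with 53.5% of all transcripts. Matched members were 2 that are the sole transcript of their gene in the deposited tables, LOC100135907 (NM_001124274.1) and LOC100135906 (NM_001124273.1), and 9 that are 1 of several transcripts of their gene. The other 16 had no match and are given by accession, with no role. The 9 genes with several transcripts are LOC110489537, LOC110498445, LOC110505802, LOC110524449, LOC110525994, LOC110531948, klhl26, wdsub1 and ypel3. By family, klhl26 encodes a kelch-like protein, wdsub1 a protein with WD repeats and a U-box, and ypel3 a yippee-like protein.

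Levels summed over all 27 transcripts were 0.813 ± 0.487 CPM in solvent (mean ± SD, n = 3 here and below). At 1.13 ng/L they were 38.5 ± 7.30 CPM, at 1.57 ng/L 337 ± 92.9 CPM and at 6.22 ng/L 2133 ± 312 CPM. At 16.3 and 55.1 ng/L the sums were 4895 ± 1255 and 4614 ± 722 CPM. These sums were carried by few transcripts: the 2 most abundant at 55.1 ng/L, XM_021599796.1 and NM_001124274.1, held 2387 ± 393 CPM of the last. The median of the 27 means was far lower, at 0.765 CPM at 1.13 ng/L, 2.20 at 1.57, 2.21 at 6.22, 6.80 at 16.3 and 6.86 at 55.1 ng/L.

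A transcript was counted as on at a concentration where each of its 3 libraries had 1 CPM or more, and as turning on at the lowest concentration from which it was on throughout. By that measure 2 transcripts turned on at 1.13, 8 at 1.57 and 6 at 6.22 ng/L. Of the 8, XM_021562261.1 had means of 4.73 CPM at 1.13 and 3.45 CPM at 1.57 ng/L, and XM_021585254.1 2.62 and 2.23 CPM. For both, 1 library under 1 CPM at 1.13 ng/L placed them at 1.57 ng/L. The other 11 turned on at 16.3 ng/L, where the choice of members fixed it. Of these, XM_021571337.1 of wdsub1 was already on at 1.13 and 1.57 ng/L, and XM_021604087.1 and XM_021600834.1 were on at 1.13 ng/L. XM_021626089.1 of ypel3 was already on at 1.57 ng/L. Each had a library under 1 CPM at 6.22 ng/L, which placed it at 16.3 ng/L. Means at 1.13 ng/L were also above 1 CPM for XM_021615490.1 (2.93), XM_021566328.1 (1.38), XM_021575064.1 (1.22) and XM_021568703.1 (1.08). Each of these had at least 1 library under 1 CPM there. Of the 11, only XM_021620662.1, XR_002471699.1 and XM_021591842.1 had means under 1 CPM at 1.13, 1.57 and 6.22 ng/L alike. On at each concentration, whether or not the transcript stayed on, were 5, 12 and 16 of the 27 at 1.13, 1.57 and 6.22 ng/L. Among all 19169 transcripts with a low solvent mean, 210 (1.10%), 175 (0.913%) and 77 (0.402%) were on at these concentrations. At 16.3 and 55.1 ng/L 115 and 74 of them were on. These counts were thus highest at 1.13 ng/L, and higher in the groups with higher library totals. The part of library totals was not tested. Members were chosen for 1 CPM or more at 16.3 and 55.1 ng/L, so these shares are no independent background for the members' counts. No reads at all were found for 4 members at 1.13 ng/L and for 2 at 1.57 ng/L, and every member had reads in at least 1 library at 6.22 ng/L.

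**Figure D1:**
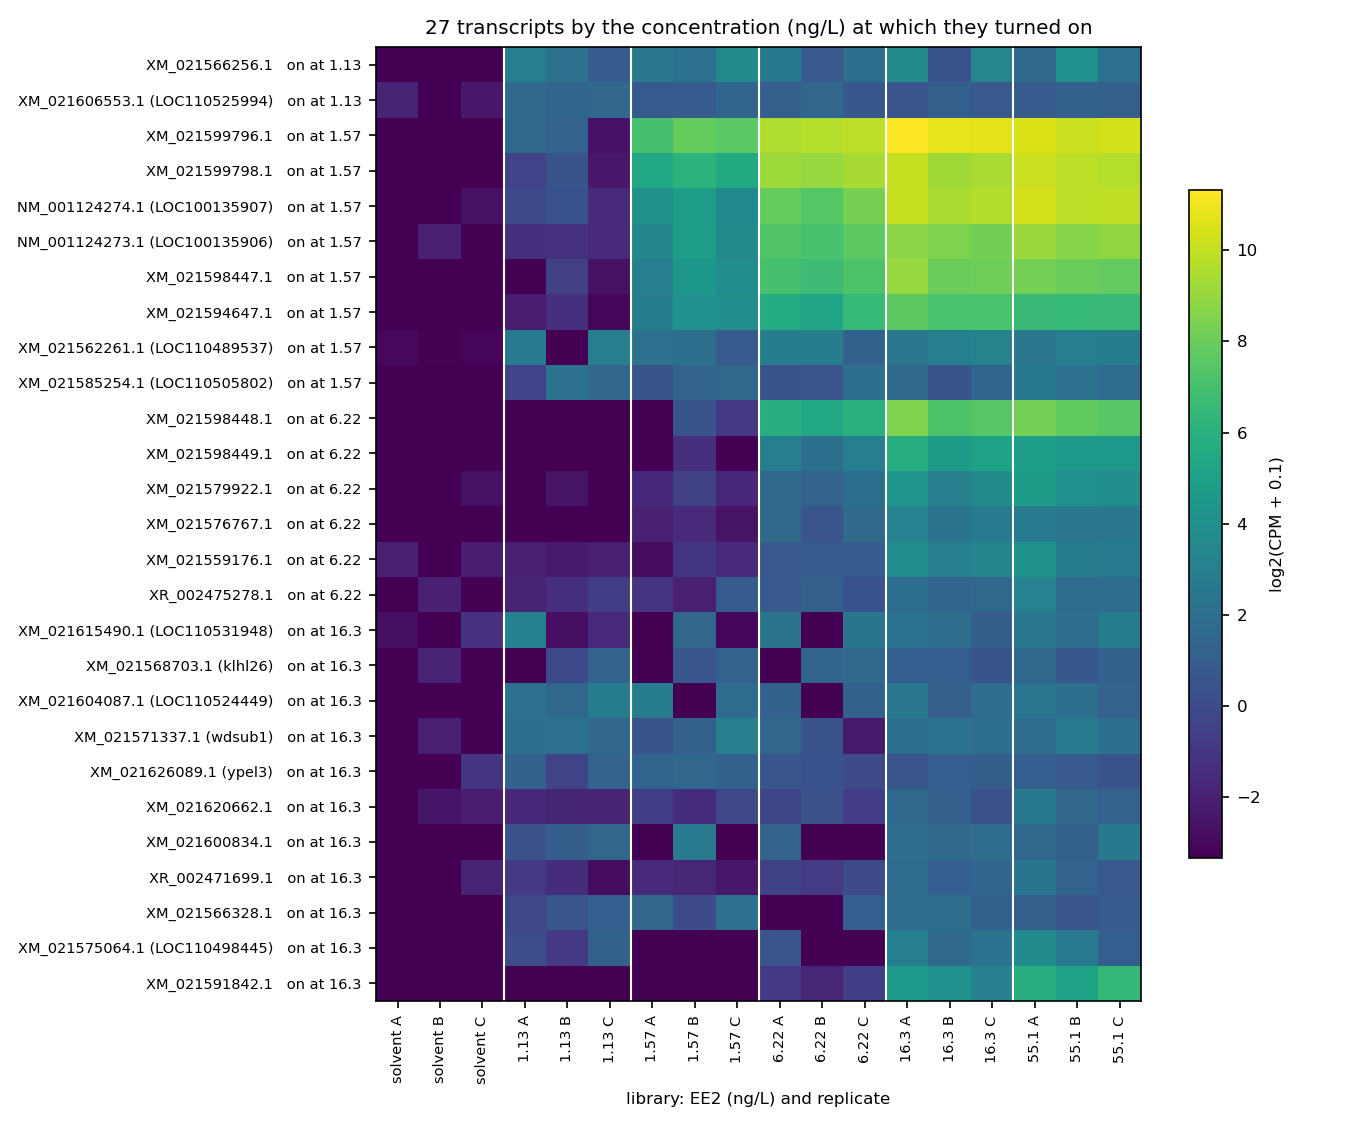
Level of each of the 27 transcripts (rows, ordered by the concentration at which they turned on) in each of the 18 libraries (columns), as log2(CPM + 0.1). The rows from XM_021599796.1 to XM_021594647.1 brighten from left to right between 1.13 and 6.22 ng/L, the 2 rows on at 1.13 ng/L do not, and several rows on at 16.3 ng/L have single libraries at or near 0 between libraries with reads.

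The most abundant graded transcripts turned on at 1.57 ng/L. XM_021599796.1, for which no gene is given, had 0 reads in all 3 solvent libraries. At 1.13 ng/L its libraries A, B and C had 2.93, 2.32 and 0.0656 CPM. At 1.57 ng/L they had 131, 232 and 188 CPM, and at 6.22 ng/L 764, 825 and 945 CPM. All 3 libraries of each step thus lay above all 3 of the step before. At 16.3 ng/L the libraries had 2549.5, 1812 and 1691 CPM and at 55.1 ng/L 1486, 1120.2 and 1332 CPM, lower and without overlap, across the 2 kinds of quantification. Against a floor of 3 reads over the solvent group, the level was at least 25.8-fold higher at 1.13 ng/L, at least 2641-fold at 1.57 ng/L and at least 28199-fold at 16.3 ng/L. Folds against this floor cover counting error only.

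XM_021599798.1, a transcript with a neighbouring accession and no gene match, was also at 0 reads in solvent. Its libraries had 0.683, 1.32 and 0.0984 CPM at 1.13 ng/L and 42.9, 69.8 and 48.2 CPM at 1.57 ng/L. They had 568, 539 and 673 CPM at 6.22 ng/L, 1039, 597 and 700.2 CPM at 16.3 ng/L, and 1154, 945 and 823 CPM at 55.1 ng/L. Each step to 6.22 ng/L separated the groups, and the libraries at 16.3 ng/L overlapped both neighbours.

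NM_001124274.1, the sole transcript of LOC100135907, had 1 read in solvent, in library C. Its libraries had 0.859, 1.21 and 0.229 CPM at 1.13 ng/L, 18.2, 29.2 and 11.3 CPM at 1.57 ng/L and 233, 175 and 318 CPM at 6.22 ng/L. They reached 1052, 696 and 805 CPM at 16.3 ng/L and 1332, 932 and 957 CPM at 55.1 ng/L, groups that overlapped. With a single solvent read, the ratio to solvent at 1.13 ng/L was 33.3 (95% counting interval 5.77 to 1336).

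NM_001124273.1, the sole transcript of LOC100135906, had 2 reads in solvent, both in library B. Its libraries had 0.286, 0.32 and 0.229 CPM at 1.13 ng/L and 10.5, 29.5 and 11.9 CPM at 1.57 ng/L. Levels of 160.5, 141 and 201 CPM followed at 6.22 ng/L, 442, 359 and 292 CPM at 16.3 ng/L and 551, 405 and 478 CPM at 55.1 ng/L. The groups from 1.13 to 16.3 ng/L did not overlap, and those at 16.3 and 55.1 ng/L did. Both of these genes with 1 transcript had whole estimated counts in every library with reads (32 of 32 values within 0.01 of a read), as reads that match a single transcript give.

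XM_021598447.1 and XM_021594647.1 followed at lower levels. XM_021598447.1 had 0 reads in solvent, 0, 0.576 and 0.0604 CPM at 1.13 ng/L, 8.00, 22.4 and 13.2 CPM at 1.57 ng/L and 131, 103 and 152 CPM at 6.22 ng/L. At 16.3 and 55.1 ng/L it had 522, 260.2 and 271 CPM and 308, 257 and 219 CPM, which overlapped. XM_021594647.1 had 0 reads in solvent, 0.125, 0.289 and 0.0218 CPM at 1.13 ng/L, 7.15, 16.5 and 15.0 CPM at 1.57 ng/L and 50.5, 37.1 and 90.7 CPM at 6.22 ng/L. Like XM_021599796.1, it was highest at 16.3 ng/L (195, 142 and 146 CPM) and lower at 55.1 ng/L (97.8, 90.3 and 96.1 CPM), with no overlap.

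**Figure D2:**
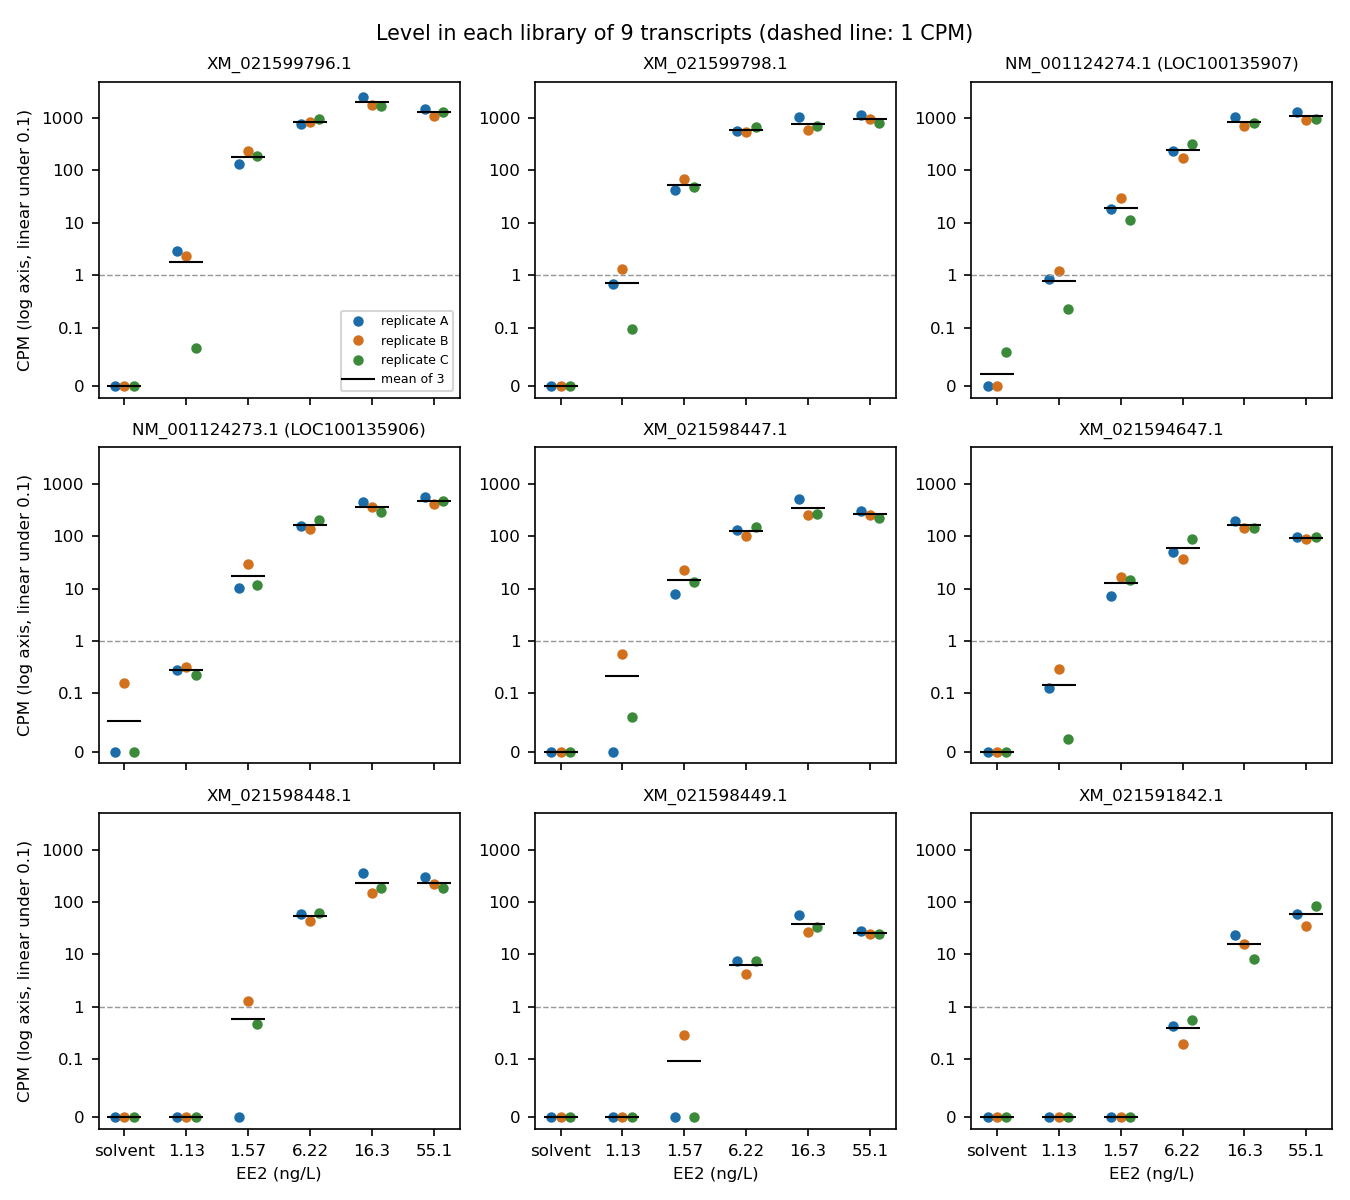
Level in CPM (log axis, linear under 0.1) of 9 transcripts in each library by EE2 concentration in ng/L; points are replicates A, B and C, the black line is the mean of the 3 and the dashed line marks 1 CPM. The first 6 panels cross the dashed line at 1.57 ng/L in all 3 libraries, the next 2 at 6.22 ng/L, and XM_021591842.1 at 16.3 ng/L.

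Of the transcripts that turned on at 6.22 ng/L, XM_021598448.1 was the most abundant. It had 0 reads in solvent and at 1.13 ng/L, 0, 1.28 and 0.464 CPM at 1.57 ng/L and 60.5, 43.4 and 61.8 CPM at 6.22 ng/L. It had 355, 150.5 and 186 CPM at 16.3 ng/L and 300.4, 218 and 184 CPM at 55.1 ng/L. XM_021598449.1 had reads in 1 library at 1.57 ng/L (0.29 CPM in B), and 7.52, 4.19 and 7.52 CPM at 6.22 ng/L. Their accessions run on from XM_021598447.1, but the gene table does not say whether the 3 share a gene.

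XM_021579922.1 had 0.21, 0.634 and 0.213 CPM at 1.57 ng/L, 3.03, 2.47 and 3.87 CPM at 6.22 ng/L and 26.9, 15.9 and 15.2 CPM at 55.1 ng/L. XM_021576767.1 had 0 reads in solvent and at 1.13 ng/L, 3.23, 1.36 and 3.23 CPM at 6.22 ng/L and 6.38, 5.40 and 5.72 CPM at 55.1 ng/L. XM_021559176.1 had 0.153, 0 and 0.117 CPM in solvent and 0.143, 0.107 and 0.153 CPM at 1.13 ng/L, which overlapped, then 1.61, 1.76 and 1.81 CPM at 6.22 ng/L. XR_002475278.1, by its accession a predicted non-coding RNA, had 1.59, 2.06 and 1.20 CPM at 6.22 ng/L and 8.80, 3.33 and 3.59 CPM at 55.1 ng/L.

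The latest of the strong transcripts was XM_021591842.1, at 0 reads in all 9 libraries of solvent, 1.13 and 1.57 ng/L. Its libraries had 0.433, 0.195 and 0.561 CPM at 6.22 ng/L, 19 reads in all, then 23.1, 16.1 and 8.33 CPM at 16.3 ng/L and 59.5, 34.2 and 85.4 CPM at 55.1 ng/L. It was the member with the largest ratio of the 55.1 to the 16.3 ng/L mean (3.77), and these groups did not overlap. XM_021620662.1 and XR_002471699.1, the latter again a predicted non-coding RNA, had means of 0.801 ± 0.306 and 0.689 ± 0.220 CPM at 6.22 ng/L and 3.67 ± 1.97 and 2.99 ± 1.77 CPM at 55.1 ng/L.

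On the scale of TPM, which divides by transcript length and so allows levels of different transcripts to be compared, NM_001124274.1 (1188 ± 222 TPM) and XM_021599798.1 (1094 ± 168 TPM) stood highest at 55.1 ng/L and did not differ beyond their spread. NM_001124273.1 (406 ± 54.2 TPM) and XM_021599796.1 (359 ± 43.2 TPM) came next and also overlapped within their spread. XM_021594647.1 (172 ± 5.62 TPM) and XM_021591842.1 (109 ± 47.7 TPM) followed. XM_021599796.1 thus led in CPM but stood below 3 other members in TPM.

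Between 16.3 and 55.1 ng/L, 22 of the 27 transcripts had overlapping libraries, with a median ratio of means of 1.12. These groups differ in the kind of quantification and in library totals, which were lower at 55.1 ng/L without overlap. The part of neither was tested. Higher at 55.1 ng/L without overlap were XM_021591842.1 and XM_021585254.1, and lower were XM_021599796.1, XM_021594647.1 and XM_021566328.1. The share of all transcripts without overlap between these groups was not counted, so these counts only describe the members.

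The tests among the 3 groups that the choice did not use asked whether the members kept rising within the low range. They were edgeR quasi-likelihood tests on 59811 transcripts, with p-values adjusted by Benjamini-Hochberg over all of them. All 27 members passed the filter on low counts in the fit of all 18 libraries. In fits of only 2 groups, 10 were not tested from 1.13 to 1.57 ng/L and 3 from 1.57 to 6.22 ng/L. From 1.13 to 6.22 ng/L 1 was not tested. Such members passed in the full fit through groups where they were high. From 1.13 to 1.57 ng/L, 6 members rose and 0 fell. Over all transcripts 9 rose (0.015%) and 5 fell (0.00836%), so that 6 of the 9 that rose were members. The 6 were XM_021599796.1, XM_021599798.1, NM_001124274.1, NM_001124273.1, XM_021598447.1 and XM_021594647.1. Their log2 fold changes lay between 4.73 and 6.74. That of XM_021599798.1 was 6.29 ± 0.48 (SE, edgeR adjusted p = 0.000446) and that of XM_021599796.1 was 6.74 ± 0.63 (edgeR adjusted p = 0.00226). The call for XM_021598447.1 was lost without library C at 1.13 ng/L (edgeR adjusted p = 0.0565). With only the libraries of these 2 concentrations in the fit, 0 members and 0 of all transcripts passed in edgeR, with edgeR adjusted p of 0.318 to 0.348 for the 6. DESeq2 on all libraries called 7 members higher and 1 lower. It called 496 of all transcripts in either direction, against 14 in edgeR on all libraries.

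From 1.57 to 6.22 ng/L, 11 members rose and 0 fell, against 2.34% of all transcripts that rose and 3.19% that fell. They were the 6 above together with XM_021598448.1, XM_021598449.1, XM_021579922.1, XM_021576767.1 and XM_021559176.1. The log2 fold changes ran from 2.32 ± 0.49 for XM_021599796.1 (edgeR adjusted p = 0.0190) to 6.70 ± 0.67 for XM_021598448.1 (edgeR adjusted p = 0.00173). The call for XM_021599796.1 did not hold without any 1 of the 1.57 ng/L libraries or without library C at 6.22 ng/L (edgeR adjusted p of 0.0506 to 0.0834). With only the libraries of these 2 concentrations in the fit, 5 members passed, beside 489 of all transcripts in either direction. The calls of NM_001124273.1, XM_021559176.1, XM_021576767.1, XM_021579922.1, XM_021594647.1 and XM_021598449.1 were lost there (edgeR adjusted p of 0.0519 to 0.118). Without library C at 6.22 ng/L, the library that held all its reads there, XM_021566328.1 was called lower (edgeR adjusted p = 0.00845).

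From 1.13 to 6.22 ng/L, 12 members rose and 0 fell, against 4.03% and 4.72% of all transcripts. Here too XM_021566328.1 was called lower without library C at 6.22 ng/L (edgeR adjusted p = 0.00621), and XM_021575064.1 without library A at 6.22 ng/L, which held all its reads there (edgeR adjusted p = 0.0340). These were the same 11 and XM_021591842.1. The latter entered the test through its reads at 16.3 and 55.1 ng/L, which chose it. With only the libraries of 1.13 and 6.22 ng/L fitted, 11 members were called, beside 1297 of all transcripts in either direction, and XM_021591842.1 was not tested. Its call (edgeR adjusted p = 0.0444) rested on 19 reads and was lost without any 1 library of 1.13 or 6.22 ng/L (edgeR adjusted p of 0.0560 to 0.155), without library B of solvent and without library B at 16.3 ng/L. The 8 with reads at 1.13 ng/L had log2 fold changes between 3.81 and 9.88. XM_021598448.1, XM_021598449.1, XM_021576767.1 and XM_021591842.1 had no reads at 1.13 ng/L. Against the floor of 3 reads over that group, XM_021598449.1 was at least 177-fold higher at 6.22 ng/L, XM_021576767.1 at least 72.1-fold and XM_021591842.1 at least 11.0-fold.

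The median log2 fold change of the 27 members was 0.81 from 1.13 to 1.57 ng/L (0.93 with members at 0 reads set to their bound), 2.04 from 1.57 to 6.22 ng/L and 2.22 from 1.13 to 6.22 ng/L. Over all transcripts tested it was -0.001, -0.03 and -0.03. Library totals were lower at 6.22 ng/L than at 1.13 and 1.57 ng/L, and their part in these differences was not tested. Counting only whether all 3 libraries lay above all 3 of the lower concentration, 9, 13 and 15 members did so in the 3 comparisons, against 3.32%, 7.22% and 6.41% of all transcripts. In each, 1 member had all 3 libraries below all 3, against 9.18%, 18.3% and 23.5%. These counts and medians include members that passed the filter on low counts only through groups where they were high. There were 10 such members in the first comparison, 3 in the second and 1 in the third. Of the 9 from 1.13 to 1.57 ng/L, XM_021576767.1, XM_021579922.1 and XM_021620662.1 were among them, so the shares of all transcripts are no independent background.

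**Figure D3:**
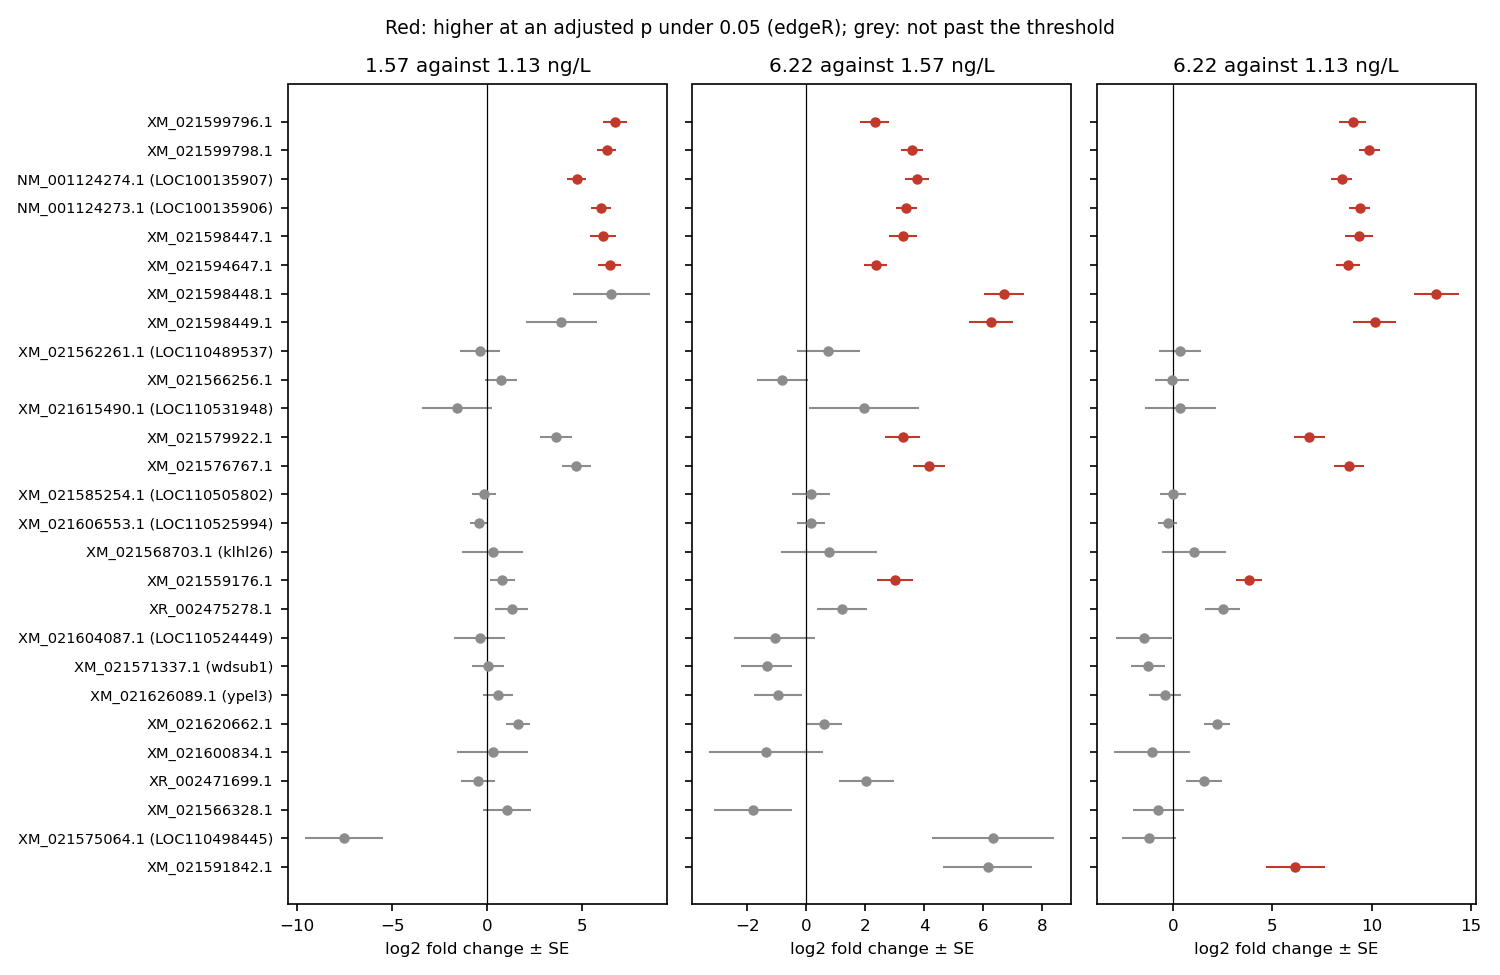
Log2 fold change with its standard error for each of the 27 transcripts in the 3 comparisons among 1.13, 1.57 and 6.22 ng/L; red points passed the threshold in edgeR and grey points did not. Red points are 6, 11 and 12 in the panels and all lie right of 0; values of transcripts with no reads in a group depend on the small count edgeR adds and are no bounds.

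The remaining 15 members passed in none of the 3 comparisons, and 9 of these were the transcripts of genes with several transcripts: 0 of 9 passed in edgeR in any comparison. At an unadjusted p under 0.05 stood XM_021575064.1 alone of the 9, with 0 reads at 1.57 ng/L (edgeR adjusted p = 0.815 from 1.13 to 1.57 ng/L and 0.119 from 1.57 to 6.22 ng/L). DESeq2 called it lower in the former (adjusted p = 0.0123) and higher in the latter (adjusted p = 0.0115). Among the 16 unmatched members 4, 9 and 10 passed, and both genes with 1 transcript passed in all 3. The unmatched XM_021620662.1 just missed from 1.13 to 6.22 ng/L (edgeR adjusted p = 0.0508), where DESeq2 called it higher (DESeq2 adjusted p = 0.005). XR_002475278.1 was called higher there by DESeq2 (DESeq2 adjusted p = 0.00874) but not by edgeR (edgeR adjusted p = 0.1075). The median log2 fold change of the 9 from 1.13 to 6.22 ng/L was -0.26, with a range from -1.46 to 1.06. Of these 9, 1 turned on at 1.13, 2 at 1.57, 0 at 6.22 and 6 at 16.3 ng/L. Their summed level was 25.8 ± 7.97 CPM at 1.13 ng/L and 38.5 ± 7.09 CPM at 55.1 ng/L.

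XM_021606553.1 of LOC110525994 was 1 of the 2 that turned on at 1.13 ng/L. It had 0.0881 ± 0.0827 CPM in solvent and 3.16, 2.63 and 2.71 CPM at 1.13 ng/L, and then lay between 1.33 and 2.80 CPM in every library above. The other, the unmatched XM_021566256.1, had at most a trace in solvent and 7.46, 4.42 and 1.83 CPM at 1.13 ng/L. At 16.3 ng/L it had 12.7, 1.23 and 10.9 CPM and at 55.1 ng/L 3.23, 16.4 and 4.33 CPM, so that replicates of a group differed widely.

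For the 9 genes with several transcripts, the sum over the gene's transcripts changed far less than the member did. The ratio of the gene sum at 55.1 ng/L to that in solvent lay between 0.761 and 1.30, with a median of 0.934, and the groups overlapped for 8 of the 9. How often the sums of genes without a member overlapped between these groups was not counted. In all 9 genes the other transcripts of the gene were lower at 55.1 ng/L than in solvent by their means. The gene sum of wdsub1 was 7.69 ± 0.434 CPM in solvent and 7.75 ± 1.65 CPM at 55.1 ng/L, while the member XM_021571337.1 went from 0.655% to 60.2% of it. For LOC110489537 the sum was 9.63 ± 2.14 and 7.84 ± 0.473 CPM and the share of the member XM_021562261.1 0.161% and 87.6%.

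The share of XM_021585254.1 in LOC110505802 was 0% in solvent and 100% in each library at 55.1 ng/L, with gene sums of 4.85 ± 0.850 and 4.53 ± 1.37 CPM. For klhl26 the sum was 6.08 ± 1.84 and 4.89 ± 0.735 CPM and the share of XM_021568703.1 0.684% and 47.4%. For ypel3 the sum was 2.39 ± 0.363 and 2.10 ± 0.347 CPM and the share of XM_021626089.1 5.03% and 78.3%. LOC110524449 was the gene whose groups did not overlap, with sums of 17.3, 17.8 and 14.7 CPM in solvent and 14.0, 13.6 and 10.3 CPM at 55.1 ng/L.

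**Figure D4:**
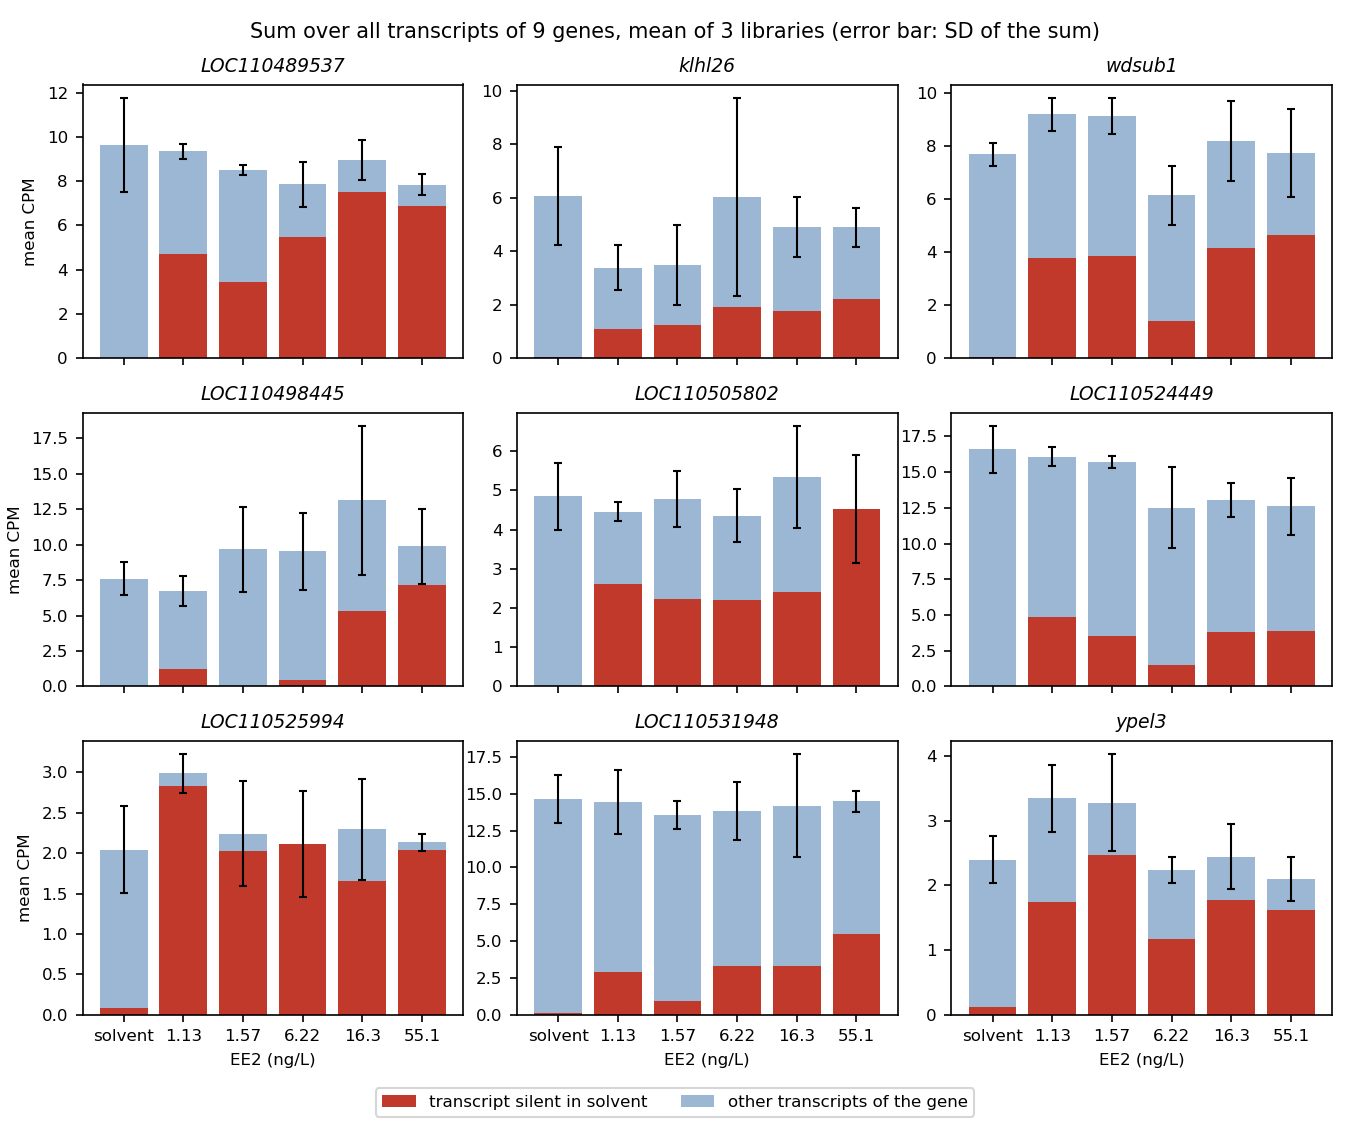
Mean level in CPM of the member (red) and of all other transcripts of its gene (blue) at each EE2 concentration in ng/L, for the 9 genes with several transcripts; error bars are the SD of the gene's sum over 3 libraries. The red part is near 0 in solvent and present at 55.1 ng/L in every panel, while the full height of the bars changes by a ratio between 0.761 and 1.30 from solvent to 55.1 ng/L.

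Single libraries of these members dropped out. XM_021562261.1 had 6.73, 0.0008 and 7.46 CPM at 1.13 ng/L, and XM_021615490.1 of LOC110531948 had 4.85, 2.93e-05 and 4.97 CPM at 6.22 ng/L. XM_021568703.1 had 4.46e-05, 2.65 and 3.09 CPM at 6.22 ng/L. XM_021604087.1 of LOC110524449 had 4.36, 3.04 and 7.26 CPM at 1.13 ng/L, then 7.20, 0 and 3.43 CPM at 1.57 ng/L and 2.27, 0 and 2.20 CPM at 6.22 ng/L. XM_021575064.1 of LOC110498445 had 1.01, 0.469 and 2.19 CPM at 1.13 ng/L, 0 reads at 1.57 ng/L and 1.37, 0 and 0 CPM at 6.22 ng/L. The same was seen in the unmatched XM_021600834.1 (0.000537, 6.60 and 0.00315 CPM at 1.57 ng/L) and XM_021566328.1 (0, 0 and 1.98 CPM at 6.22 ng/L). Estimated counts of the 9 were whole in 5 of 129 values (3.88%), and those of the unmatched members in 57 of 220 (25.9%); fractions arise where reads that match several transcripts are divided between them. Over all members the share was 24.7%, and over 43601 other transcripts in the members' range of mean CPM it was 26.1%.

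Within groups, the graded transcripts tended to be high in the same library. Of the 12 members that rose from 1.13 to 6.22 ng/L, library A was highest in 12 of 12 at 16.3 ng/L and in 11 of 12 at 55.1 ng/L. Library B was highest in 11 of the 11 with reads at 1.57 ng/L, and C in 11 of 12 at 6.22 ng/L. At 1.13 ng/L library C was lowest in 6 of the 8 with reads. These transcripts were measured in the same libraries, so the counts are a description. In the other 15, A was highest in 9 at 16.3 ng/L and in 9 at 55.1 ng/L. At 1.57 ng/L C was highest in 8 of the 14 with reads, and at 6.22 ng/L A, B and C were highest in 6, 4 and 5. At 1.13 ng/L A, B and C were lowest in 5, 6 and 4. Which library was highest was not counted over all transcripts.

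The limits of the choice cut through a range of values. The highest solvent means inside were 0.0901 CPM for XM_021559176.1, 0.121 CPM for XM_021615490.1 and 0.123 CPM for ypel3. Just outside were XM_021574059.1 at 0.240 CPM, mtor (XM_021615845.1) at 0.254 CPM and XM_021579336.1 at 0.337 CPM. At the other limit, XM_021620662.1 had its lowest library at 16.3 and 55.1 ng/L at 1.12 CPM and XM_021566256.1 at 1.23 CPM. XM_021586473.1, at 0.942 CPM, and XM_021566708.1, at 0.809 CPM, fell short. Since 3 solvent libraries decide the first limit, leaving out solvent library A, B or C raised the number of members from 27 to 58, 60 or 66.

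Of the transcripts left out by name, zp2.3 had means of 0.0459, 1.51, 43.6, 224, 545 and 640.2 CPM from solvent to 55.1 ng/L, and vtg3 of 0.0519, 0.0719, 1.00, 8.76, 23.5 and 22.7 CPM.

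Other genes of the pathway were taken from 2 lists of symbols, without the members. Of the egg protein and estrogen receptor list, 14 of 23 transcripts were tested, from 7 genes. At 55.1 ng/L against solvent 2 rose and 0 fell, compared with 0.137% and 0.0702% of all transcripts. These were zp2.3 (log2 fold change 13.74 ± 0.66) and vtg3 (8.92 ± 0.65), which met the limits that chose the members, so their count is not independent of the choice. At 1.13, 1.57, 6.22 and 16.3 ng/L 1, 2, 2 and 2 of the list rose, beside 2.42%, 1.17%, 0.0485% and 0.206% of all transcripts. At these concentrations 0 of the list fell, beside 1.34%, 0.505%, 0.0184% and 0.0284% of all. The call of zp2.3 at 1.13 ng/L and that of vtg3 at 1.57 ng/L were lost without solvent library A or B, and the former also without library B at 1.13 ng/L. No transcript of esr1 passed on its own; the one with the highest level, XM_021598364.1, had 1.55 ± 0.331 CPM in solvent and 18.7 ± 3.09 CPM at 55.1 ng/L (edgeR adjusted p = 0.185, and 0.0121 without library B at 6.22 ng/L). The list's median log2 fold change at 55.1 ng/L was 2.28, against -0.01 over all transcripts. All values above that median belonged to zp2.3, vtg3 and esr1. Those of esr1 above it ran from 3.39 to 7.59, with none past the threshold. The esr1 transcript XM_021598355.1 lay below the median, at 1.16. Of the other genes, esr2a had -0.45, gper1 0.35, zp3d.1 0.08 and the erb2 transcripts -0.04 to 0.25, so the median does not describe the list as a whole.

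Of the secretory route list, proteins that carry and fold secreted proteins in the endoplasmic reticulum, 14 of 39 symbols were found and 21 of 22 transcripts tested. At 55.1 ng/L against solvent 1 rose and 0 fell, beside 0.137% and 0.0702% of all transcripts. The 1 was mcfd2, a cofactor of the cargo receptor that carries proteins out of the endoplasmic reticulum. Its log2 fold change was 1.74 ± 0.23 (edgeR adjusted p = 0.00457), and 1.68 ± 0.23 at 16.3 ng/L (edgeR adjusted p = 0.00642). The list's median log2 fold change was 0.10. At 1.13, 1.57, 6.22 and 16.3 ng/L 1, 1, 0 and 2 transcripts of the list rose, beside the same shares of all transcripts as above (2.42%, 1.17%, 0.0485% and 0.206%), and 0 fell. The call of sec24d at 1.57 ng/L was lost without library A or B of solvent or of 1.57 ng/L, and that of dnajc3a at 16.3 ng/L without any 1 library of 16.3 ng/L, without solvent library A or B, without library A or C at 1.13 ng/L, A or B at 1.57 ng/L or A at 6.22 ng/L.

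In the authors' deposited table of each concentration against solvent, 17 of the 27 members were among the 28438 transcripts listed. The log2 fold changes of the authors' deposited tables for these 17 had a median of 4.04 at 1.13 ng/L, 8.11 at 1.57, 8.85 at 6.22, 10.4 at 16.3 and 11.1 at 55.1 ng/L. Across them, the authors' deposited values ran from -0.07 to 8.54 at 1.13 ng/L and from 5.58 to 16.8 at 55.1 ng/L. These comparisons share their solvent libraries. Low solvent levels and levels at 16.3 and 55.1 ng/L chose the members, so high folds against solvent follow from the choice and are no separate support. For members with 0 reads in solvent, such as XM_021599796.1, the deposited folds have no measured base.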

How the data were processed

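Per the submitters' processing notes, the authors trimmed reads with Trimmomatic 0.38, quantified them with kallisto and compared groups with DESeq2; other versions and the genome build are not given in the sources used here. Per the file headers, the deposited table of each library holds estimated counts and TPM per RefSeq transcript. Per the file headers, the authors' DESeq2 tables give a mean of normalized counts (signal), a log2 fold change, a test statistic (score) and a p-value; only the log2 fold changes are printed. A deposited table that repeats the counts in rounded form was not used.

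CPM is the estimated count scaled to the library's total, with no other factor. For tests, estimated counts were rounded to whole numbers, filtered by edgeR's filterByExpr and given TMM factors, then fitted with edgeR 4.0.16 (R 4.3.3, limma 3.58.1) over all 18 libraries with group as the term and 12 residual degrees of freedom; 59811 transcripts were tested, with 0.05 as the threshold for adjusted p. The fit was tested on simulated data. Folds against a group with 0 reads use a floor of 3 reads over the group, and ratios with few reads have exact 95% intervals from summed reads; both cover counting error only.

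Transcripts were matched to the RefSeq gene table by accession without version (42410 of 79244), for names only. Members and lists were chosen with earlier results of these data known. Given with values were the 12 members with the highest mean at 6.22 ng/L, those that turned on at 1.13 ng/L, 6 that turned on at 16.3 ng/L with the lowest mean at 6.22 ng/L and those with a gene symbol other than a LOC number. XM_021576767.1, XM_021559176.1, XR_002475278.1, XM_021585254.1, XM_021604087.1 and the gene sums of the other genes were named after their values were seen. Promoter and protein sequences were not used here. Alternatives were other limits, scalings, filters and tools, a replicate block and leaving out each library.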

Additional observations from a re-analysis of the deposited data

How the results depend on the processing

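The number of members moved from 27 to 41 with a solvent limit of 0.5 CPM and to 17 with 2 CPM asked of the 6 exposed libraries, and ranged from 31 to 66 when 1 library was left out. It was 23 to 40 under the other limits and scalings. The 23 found with deposited TPM shared 19 with the 27 members. Turned on by 1.13 ng/L were 2 members, against 4 with 0.5 CPM, 0 with 2 CPM, 9 with a mean of 1 CPM and 7 with every library at 3 reads or more and above the highest solvent library. By 1.57 and by 6.22 ng/L 10 and 16 had turned on, against 6 and 10 with 2 CPM, 9 and 15 with 1 TPM and 11 and 19 with 0.5 CPM. With a mean of 1 CPM the counts were 14 and 21. With every library at 3 reads or more and above the highest solvent library they were 13 and 20. Without 1 library the counts by the 3 concentrations were 2 to 3, 10 to 12 and 16 to 18. Fitting only the 2 groups compared gave 0 members in place of 6 from 1.13 to 1.57 ng/L, with 10 not tested, and 5 in place of 11 from 1.57 to 6.22 ng/L, with 3 not tested; this fit has fewer samples. Without 1 library these counts, and that from 1.13 to 6.22 ng/L, were 5 to 6, 10 to 12 and 11 to 13 members higher, and 1 was lower from 1.57 to 6.22 ng/L without library C at 6.22 ng/L, and from 1.13 to 6.22 ng/L without library A or C at 6.22 ng/L. DESeq2 called 7, 14 and 14 members higher, and 1 lower in the first comparison, but 496, 7358 and 9494 of all transcripts against 14, 3306 and 5237 in edgeR. Limma on log2(TPM + 0.1) called 48, 5312 and 9339 of all, and 1 member (XM_021566328.1) lower from 1.57 to 6.22 ng/L. With the replicate block 5, 11 and 11 members were called: XM_021598447.1 from 1.13 to 1.57 ng/L (edgeR adjusted p = 0.0523) and XM_021591842.1 from 1.13 to 6.22 ng/L (edgeR adjusted p = 0.0834) were not. Libraries with the same letter did not deviate together among the groups tested (correlations from -0.0105 to 0.0211 over 9 pairs), so the letters are not taken as pairs. No direction of a called value reversed under the alternatives run. The cause of these changes was not tested. Levels of 1 or 2 reads a library limit what can be said of the faint members.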
